A study of Arabidopsis thaliana with 15 samples.

Results

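STZ (AT1G27730, also known as ZAT10 or salt tolerance zinc finger) was followed across roots of Arabidopsis thaliana treated with brassinolide. The gene was found by 1 rule, the probe set annotated to STZ alone, and it is 1 of 13286 genes that have a probe set of their own among 22746 features on the array. STZ was singled out because its signal was low in brassinolide-treated provascular cells in an earlier look at the same arrays. Its values in that comparison are therefore a description and carry no test, as does every comparison that uses the provascular arrays for STZ.

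STZ encodes a C2H2 zinc finger protein with an EAR motif, a short stretch through which plant repressors recruit corepressors. It binds DNA and lowers transcription of its targets, and in Arabidopsis its own transcript is known to rise within a short time of cold, drought, salt, wounding and oxidative stress. Brassinolide (BL) is the most active brassinosteroid, a steroid hormone that is perceived at the cell surface and promotes cell elongation and vascular differentiation.

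RNA from fluorescence-sorted root protoplasts was hybridised to Affymetrix ATH1 arrays, 1 array per sample and 15 in all. Cells marked by pAtHB15:YFP, which labels provascular cells, were taken after 2 h of 10 nM BL on 2 arrays and as untreated controls on 3 arrays, and these groups are called ATHB15 BL and ATHB15 control. Cells marked by pWOL:GFP, which labels the stele, were taken as untreated controls and after 0.5, 1, 2 and 4 h of 10 nM BL, with 2 arrays in each of these 5 WOL groups. All roots came from 6-day-old seedlings, and every sample, controls included, went through 2 h of cell wall digestion before sorting, during which no group is described as mock-treated for the matching time. The promoter of each reporter sets which cells a sample holds, and nothing in the labels says whether replicates came from separate cultures, so a p-value measures only the spread between arrays, which may be technical.

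The deposited signal is an intensity scaled to the same trimmed mean on every array, and 49.5% to 59.6% of probe sets were called present per array. Ratios of 3' to 5' probe sets, which rise as RNA is shortened, stood apart on some arrays, and their values are given beside the results they touch. Of 14 stele and provascular markers listed, the 2 with a probe set of their own, PHV and LHW, were called present on all 15 arrays. Of 12 markers of other root tissues, the 1 with a probe set of its own, the cortex gene AT1G62500, was called present on 1 array. The number of arrays limits the precision of every value here.

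STZ was detected in every sample, and its signal was 1056.8 or more on every array except the pair from BL-treated provascular cells. The probe set holds 11 probe pairs and was called present on all 15 arrays, with the smallest detection p-value of 0.000244 on 12 of them. In ATHB15 BL cells the signal was 214.8 and 106.3, against 2726.5, 1056.8 and 1349.1 in ATHB15 control cells. Both treated arrays lay below all the controls, and the lowest control was 4.92 times the highest treated array. Over the 6 pairings of a control with a treated array the control was between 4.92 and 25.6 times as bright. The transcript was still detected on both treated arrays, with detection p-values of 0.00586 and 0.00195.

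**Figure D1:**
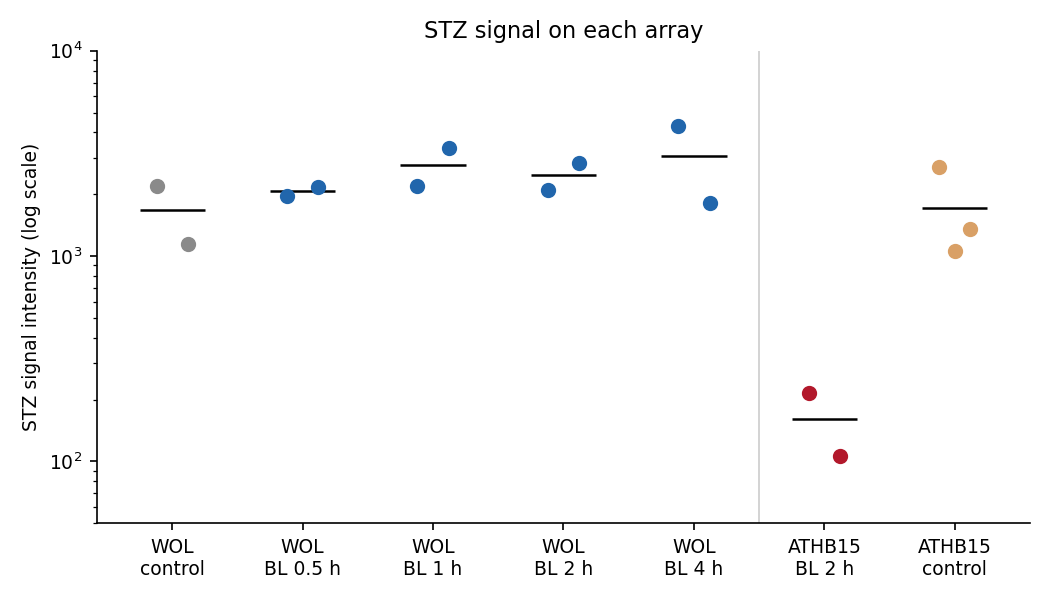
STZ signal intensity (log scale) on each of the 15 arrays, with WOL groups in order of time on the left and ATHB15 groups on the right. Points are arrays and lines are group means. Both ATHB15 BL arrays, at 214.8 and 106.3, lie below every other array, of which the lowest is 1056.8.

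On the log2(signal + 16) scale the ATHB15 BL mean was 7.39 ± 0.65 (SD, n = 2) and the ATHB15 control mean was 10.63 ± 0.70 (SD, n = 3). The difference was -3.24 ± 0.48 (SE of the fit), which is 9.46-fold lower on that scale and 10.7-fold lower by mean signal, 161 in ATHB15 BL and 1711 in ATHB15 control. Of the 22746 probe sets, 5 had a more negative difference. Over all probe sets the median difference was -0.026, and 1.11% were called at an adjusted p under 0.05 in limma, 0.761% as lower in ATHB15 BL, so that nothing is read from a call for STZ, which was chosen on this contrast. Leaving out any single ATHB15 array moved the difference to between -3.70 and -2.78. In sorted bulk samples, fewer cells of a kind that carries STZ and less STZ RNA per cell cannot be told apart.

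Of 3 ratios that follow RNA quality, 1 differed along with this comparison. The 3' to 5' ratio of the UBQ control probe sets was 9.07 and 5.99 on the ATHB15 BL arrays, against 4.85, 4.53 and 4.01 on the ATHB15 control arrays, with no overlap. The GAPDH ratio was 2.23 and 1.09 in ATHB15 BL and 3.38, 1.75 and 2.22 in ATHB15 control, so these overlapped. The actin ratio was 20.3 and 5.68 in ATHB15 BL and 26.8, 13.1 and 12.8 in ATHB15 control, and these overlapped too. For GAPDH and actin the lowest ratio was in ATHB15 BL and the highest in ATHB15 control, unlike UBQ. The ratios therefore give no single direction for RNA quality between the groups. With the UBQ ratio of each array as a covariate the STZ difference was -3.15 ± 0.67 (SE), and with the GAPDH or actin ratio it was -2.96 ± 0.54 and -3.02 ± 0.51. Because the UBQ ratios did not overlap between the groups, the UBQ fit cannot cleanly separate the ratio from the treatment. In that fit 1 of 22746 probe sets was called in ATHB15. The part of RNA quality in the STZ difference was not tested further.

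In WOL cells STZ was detected without BL and at every time after it. The WOL control arrays had 2204.8 and 1146.5. The signal was 1964.4 and 2176.5 after 0.5 h, 2205.6 and 3370.4 after 1 h, 2097.6 and 2849.8 after 2 h, and 4317.5 and 1815.0 after 4 h. All 8 BL arrays lay above the dimmer control, and 4 of the 8 lay above both controls. The dimmest WOL array was 5.34 times as bright as the brighter ATHB15 BL array, and the brightest WOL array was 3.77 times the dimmest.

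The log2 difference from the WOL control was 0.38 at 0.5 h, with a 95% confidence interval of -0.75 to 1.50 and an adjusted p of 0.838 in limma. It was 0.77 at 1 h (interval -0.35 to 1.90, adjusted p = 0.763 in limma), 0.62 at 2 h (interval -0.51 to 1.74, adjusted p = 0.861 in limma) and 0.81 at 4 h (interval -0.32 to 1.94, adjusted p = 0.672 in limma). The SE was 0.53 at each time, and a moderated F test over the course gave 0.81 with an adjusted p of 0.938. None of the 4 times passed the test, yet the intervals leave room for a rise of over 1 on the log2 scale at each. Over all probe sets 0% were called at any of the 4 times, with 2057, 1510, 1505 and 1903 at an unadjusted p under 0.05 at 0.5, 1, 2 and 4 h. The unadjusted p of STZ was 0.487, 0.164, 0.261 and 0.145 in the same order, so STZ was not among them.

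**Figure D2:**
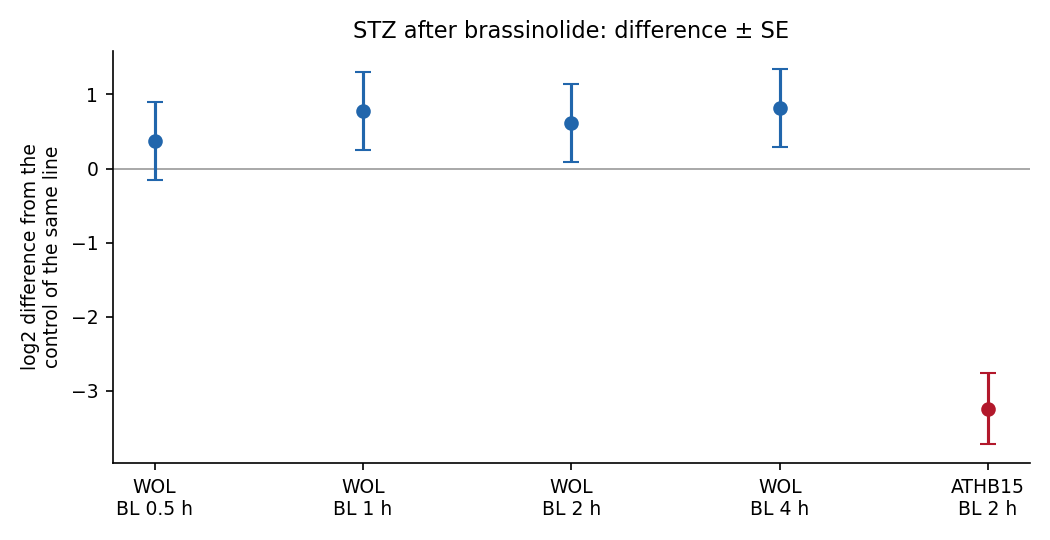
Difference of STZ from the control of its own line on the log2(signal + 16) scale, by group; points are the fitted differences and bars are ± SE. The 4 WOL times lie between 0.38 and 0.81 above 0, and the ATHB15 BL group lies at -3.24.

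The WOL values depended on the control arrays, which differed 1.92-fold from each other. WOL control B, the dimmer one, also had the highest ratios of the WOL controls, 7.43 for UBQ, 4.66 for GAPDH and 48.3 for actin, against 5.07, 2.71 and 28.4 on WOL control A. Without WOL control B the differences at 0.5, 1, 2 and 4 h were -0.092, 0.30, 0.15 and 0.34, and without WOL control A they were 0.84, 1.24, 1.08 and 1.28. The 4 h value also rested on array A of that time, since it was 0.19 without it and 1.43 without array B. The part of RNA quality in the WOL values was not tested beyond the fits that hold a ratio as a covariate, in which the 4 differences lay between 0.35 and 1.12 and none was called.

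STZ varied more between arrays of a group than most features. Its residual SD was 0.60 on the log2 scale, against a median of 0.43, and 82.7% of probe sets had a smaller one. Ordered by mean log2 level, the groups ran from WOL 4 h at 11.46 ± 0.88 through WOL 1 h at 11.42 ± 0.43, WOL 2 h at 11.27 ± 0.31, WOL 0.5 h at 11.02 ± 0.10, WOL control at 10.65 ± 0.66 and ATHB15 control at 10.63 ± 0.70 to ATHB15 BL at 7.39 ± 0.65 (SD). Each pair of neighbours in this order overlapped except the last, where the ATHB15 BL arrays lay apart from ATHB15 control. Between the untreated lines, ATHB15 control minus WOL control, the difference was -0.016 ± 0.48 (SE), and its sign turned to 0.26 when each array was centred on its median.

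At 2 h the mean of STZ lay below its control in ATHB15 cells and above its control in WOL cells. The ATHB15 difference minus the WOL difference was -3.86 ± 0.71 (SE), with no test because STZ was chosen on one of its terms, and 5 probe sets had a lower value. Over all probe sets the median of this quantity was 0.095. At WOL 2 h the median of all probe sets was -0.11, and with each array centred on its median the STZ difference there was 0.79.

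Genes with a pattern like that of STZ were sought among 8107 probe sets annotated to 1 gene and called present on at least 3 arrays. Some genes, such as AT2G30600, have more than 1 such probe set, and each probe set is counted as a gene here. Pearson's r with STZ on the log2(signal + 16) scale was above 0.9 for 105 of the 8107 over the 15 arrays and below -0.9 for 30. The arrays fall into an ATHB15 BL pair and the rest, so a high r over 15 arrays asks mainly whether a gene is also low on that pair, and it is given as a description with no p. The 10 highest, none of which has a name in the gene table, had r from 0.984 for AT4G23680 to 0.965 for AT4G27652.

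AT4G23680 had signals of 60 and 44.8 in ATHB15 BL, against 361.9, 179.6 and 259.1 in ATHB15 control, a log2 difference of -2.01. AT5G54940, with r = 0.980, had 487.8 and 244.6 in ATHB15 BL, against 3644.1, 1268.4 and 2697.4 in ATHB15 control, a difference of -2.69. AT2G01300, with r = 0.976, had absent calls on the pair of ATHB15 BL arrays, at 37.3 and 11, and had 584.4, 248.2 and 353.2 in ATHB15 control. As AT2G01300 was not detected on either treated array, the size of its difference was not measured. The other 7 were AT5G66650, AT5G42050, AT1G32920, AT1G79620, AT4G28290, AT1G72230 and AT4G27652, whose differences ran from -2.95 for AT1G72230 to -2.24 for AT5G42050. All 10 shared with STZ the separation of treated from control arrays, which is what the measure of likeness used.

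**Figure D3:**
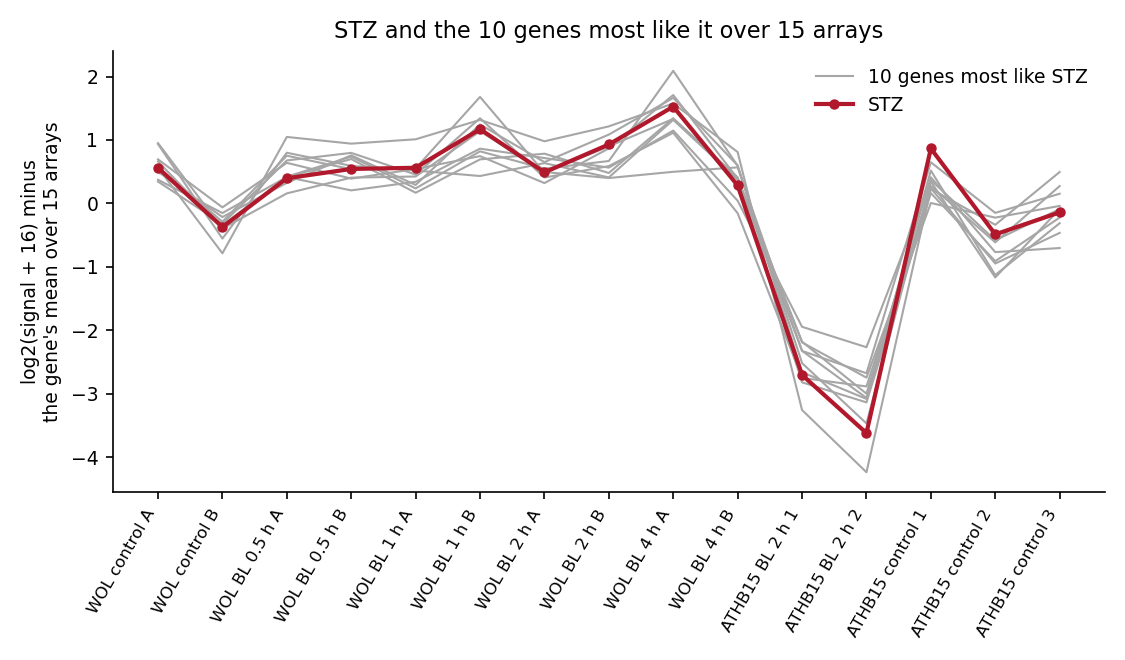
Level on the log2(signal + 16) scale minus the gene's own mean over 15 arrays, for STZ (red) and the 10 genes with the highest r over 15 arrays (grey), with arrays along the axis. Every line drops on the 2 ATHB15 BL arrays, and STZ is highest on WOL BL 4 h A.

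The 5 genes with the lowest r over 15 arrays ran the other way. AT5G27330, with r = -0.940, had 1312.9 and 1668.1 in ATHB15 BL, against 459.7, 520.8 and 681.6 in ATHB15 control. AT3G22670 had r = -0.930, AT5G64730 -0.928, AT4G13780 -0.927 and AT3G51320 -0.927, and in each both ATHB15 BL arrays lay above the 3 controls. The 5 have no name in the gene table.

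A second likeness used the 10 WOL arrays alone, so the ATHB15 signals took no part in ranking the genes, although STZ itself was chosen on them and detection calls on all 15 arrays set which genes were eligible. With eligibility set by the WOL arrays alone, 7541 genes were left and the 100 of highest r were the same. These 10 arrays come from 5 groups of 2 and share the array-to-array differences in RNA quality given above. Over them, r exceeded 0.9 for 84 genes and was below -0.9 for 93. The 10 highest ran from 0.978 for AT5G18310 to 0.948 for AT5G54940, and AT5G54940 was the 1 gene shared with the 10 highest over 15 arrays. The lowest r on leaving out any 1 WOL array was 0.961 for AT5G18310 and 0.914 for AT5G54940.

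All 10 genes most like STZ in WOL cells had lower means in ATHB15 BL than in ATHB15 control, with a median difference of -1.50, and 2 of the 10 were called. Among all 8107 genes 49.4% had a lower mean and 1.09% were called lower. AT5G54940, described above, fell by 2.69 ± 0.49 (SE, adjusted p = 0.0198 in limma). AR781 had signals of 55.1 and 43.3 in ATHB15 BL, against 513.4, 209.6 and 306.3 in ATHB15 control, was called present on 1 of the 2 treated arrays, and fell by 2.38 ± 0.51 (SE, adjusted p = 0.0401 in limma). The call was kept in 6 of 16 alternative settings for AT5G54940 and in 4 of 16 for AR781. Those settings include the other deposited table, whose signals are identical to those used, so it had to keep both calls. LTI30, a dehydrin induced by low temperature, had r = 0.966 over the WOL arrays and 688.9 and 562.8 in ATHB15 BL, against 1232.6, 569.9 and 923.0 in ATHB15 control, which overlapped. Its difference was -0.47 ± 0.52 (SE, adjusted p = 0.776 in limma), which did not pass the test. AT5G13200 had absent calls throughout ATHB15 BL and on 2 of the 3 controls, with 10.2 and 3.2 in ATHB15 BL, against 160.7, 74.1 and 58.9 in ATHB15 control, so the size of its difference was not measured.

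Beyond the first 10, genes more like STZ in WOL cells had a lower mean in ATHB15 BL more often. Of the 100 genes with the highest r over the WOL arrays, 84 had a lower mean in ATHB15 BL than in ATHB15 control, 7 were called lower, 41 were lower at an unadjusted p under 0.05, and the median difference was -0.83. Of the 100 with the lowest r, 23 had a lower mean, 0 were called lower by limma, 1 was lower at an unadjusted p under 0.05, and the median was 0.31. Over all 8107 genes 49.4% had a lower mean, 1.09% were called lower, 792 genes were lower at an unadjusted p under 0.05, and the median was 0.0083. In bins of r that were 0.25 wide, the median difference was 0.18 in the lowest bin, 0.021 in the bin from 0 to 0.25, -0.17 in the bin from 0.5 to 0.75 and -0.60 in the highest bin. Genes share arrays and are not independent, so these counts are descriptions.

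**Figure D4:**
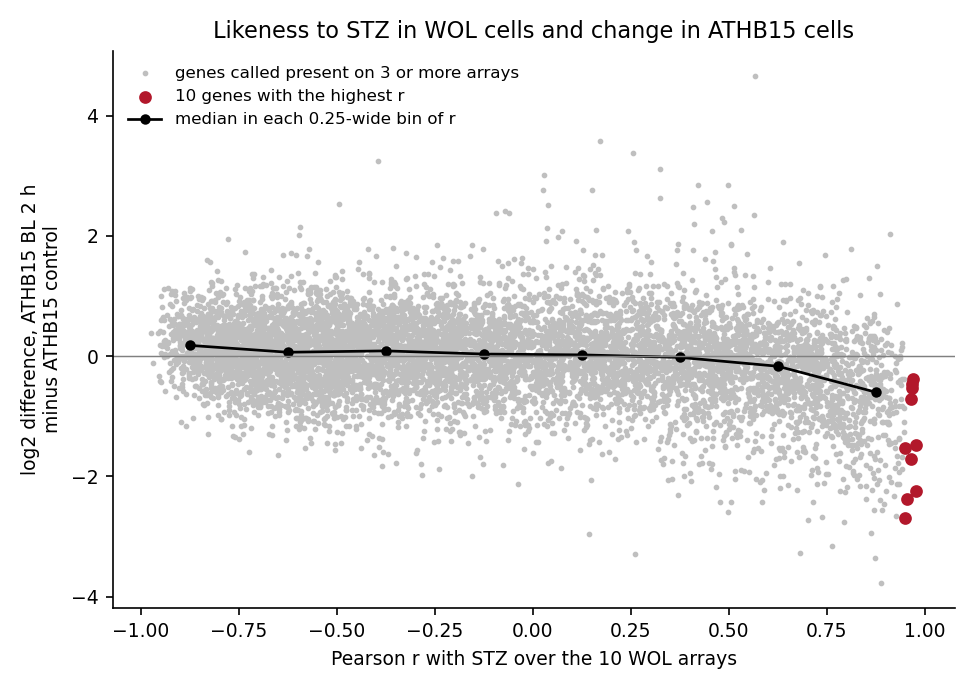
Each grey point is 1 of 8107 probe sets annotated to 1 gene, placed by its Pearson r with STZ over the 10 WOL arrays and by its log2 difference between ATHB15 BL and ATHB15 control. Red points are the 10 highest r, all below 0, and the black line joins the medians of bins 0.25 wide, which reach -0.60 in the highest bin.

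Most of these 100 genes had a lower mean in ATHB15 BL under each setting tried, while the number of calls changed. With the 100 chosen without WOL control B, which kept 60 of them, 82 had a lower mean, 6 were called, and the median was -0.66. With the UBQ ratio as a covariate 69 of the original 100 had a lower mean and 0 were called by limma. Without ATHB15 control 1 and without ATHB15 control 3, 1 was called each time, and without ATHB15 BL 1 or ATHB15 BL 2 the count was 0.

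The other genes of the stress pathway could be read for few members. Of 115 genes listed as relatives, partners, upstream kinases or stress genes in the company of STZ, 10 had a probe set of their own, and none of the listed corepressors and kinases (9), jasmonate genes (17), oxidative stress genes (8) or brassinosteroid genes (20) did. Of the 10, 7 had a lower and 3 a higher mean in ATHB15 BL than in ATHB15 control, 1 was called (as lower), against 0.761% of all probe sets called lower, and the median was -0.64, against -0.026 over all probe sets. AT2G45120, AT3G60580, WRKY6, COR15A and COR15B, which include the 3 with a higher mean, were called absent on all 5 ATHB15 arrays. Their directions were therefore not measured. Over the 8107 genes called present on at least 3 arrays, 49.4% had a lower mean. At this number of genes the share of calls rests on 1 gene. In WOL cells 0 of the 10 were called by limma at any time, with 3, 0, 1 and 2 at an unadjusted p under 0.05 at 0.5, 1, 2 and 4 h, beside 9.04%, 6.64%, 6.62% and 8.37% of all probe sets.

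Among the listed WRKY genes, which encode plant transcription factors active in defence, WRKY22 was the called member. It had 31.3 and 25.7 in ATHB15 BL, against 119.4, 150.1 and 110.0 in ATHB15 control, was called marginal and present on the treated arrays, and fell by 1.67 ± 0.38 (SE, adjusted p = 0.0492 in limma). That call was lost in 14 of 16 alternative settings, in which the adjusted p reached 0.483 and the difference kept its sign. The settings that kept the WRKY22 call include the other deposited table, whose signals are identical to those used. WRKY53, with r = 0.831 over the WOL arrays, had 15.3 and 31 in ATHB15 BL, against 73.8, 67.1 and 101.4 in ATHB15 control, with an absent and a marginal call on the treated arrays. As neither treated array was called present, the size of the WRKY53 difference was not measured. The fitted difference did not pass the test (adjusted p = 0.152 in limma). WRKY6 was called absent on all 5 ATHB15 arrays and present on 9 of the WOL arrays, so it has no measured change there. The WRKY genes with a probe set of their own were also read by name after values had been seen, which adds WRKY20, WRKY42 and WRKY47. Of these 6 WRKY genes 4 had a lower and 2 a higher mean in ATHB15 BL, and the median was -0.37. Over the 8107 genes called present on at least 3 arrays, 49.4% had a lower mean. WRKY42 and WRKY47 were called absent on all ATHB15 arrays, and WRKY20, present on all 15 arrays, differed by -0.46 ± 0.28 (SE, adjusted p = 0.522 in limma).

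In the zinc finger list 4 of 15 genes had a probe set of their own, and 2 of these were called present on at least 3 arrays. AT3G53600 had 5.8 and 21.1 in ATHB15 BL, against 214.6, 35 and 50.2 in ATHB15 control, a difference of -1.69 ± 0.62 (SE, adjusted p = 0.228 in limma), with 1 of the 2 treated arrays called present. Its level already differed between the untreated lines, where the log2 difference of ATHB15 control from WOL control was -2.51 (adjusted p = 0.044 in limma), a comparison in which 2.91% of probe sets were called and 2.69% called lower. AT2G28200 had 60.6 and 31.6 in ATHB15 BL, against 157.6, 110.4 and 65.1 in ATHB15 control, a difference of -1.0 ± 0.41 (SE, adjusted p = 0.284 in limma), again with 1 of the 2 treated arrays called present. In WOL cells both had higher means at every BL time than in the control, by 1.29 to 1.67 for AT3G53600 and 0.62 to 0.99 for AT2G28200, and none of these passed the test. AT2G45120 was absent on all 15 arrays and AT3G60580 on the ATHB15 arrays.

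Of 18 cold and drought genes listed, 3 could be read, and the cold-regulated COR15A and COR15B were called absent on all 15 arrays. COR47, a dehydrin of the same response, had 2604.0 and 2818.5 in ATHB15 BL, against 4653.6, 4249.1 and 4685.1 in ATHB15 control. The COR47 difference of -0.74 ± 0.35 (SE, adjusted p = 0.371 in limma) did not pass the test. Over the WOL arrays COR47 had r = 0.764 with STZ.

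**Figure D5:**
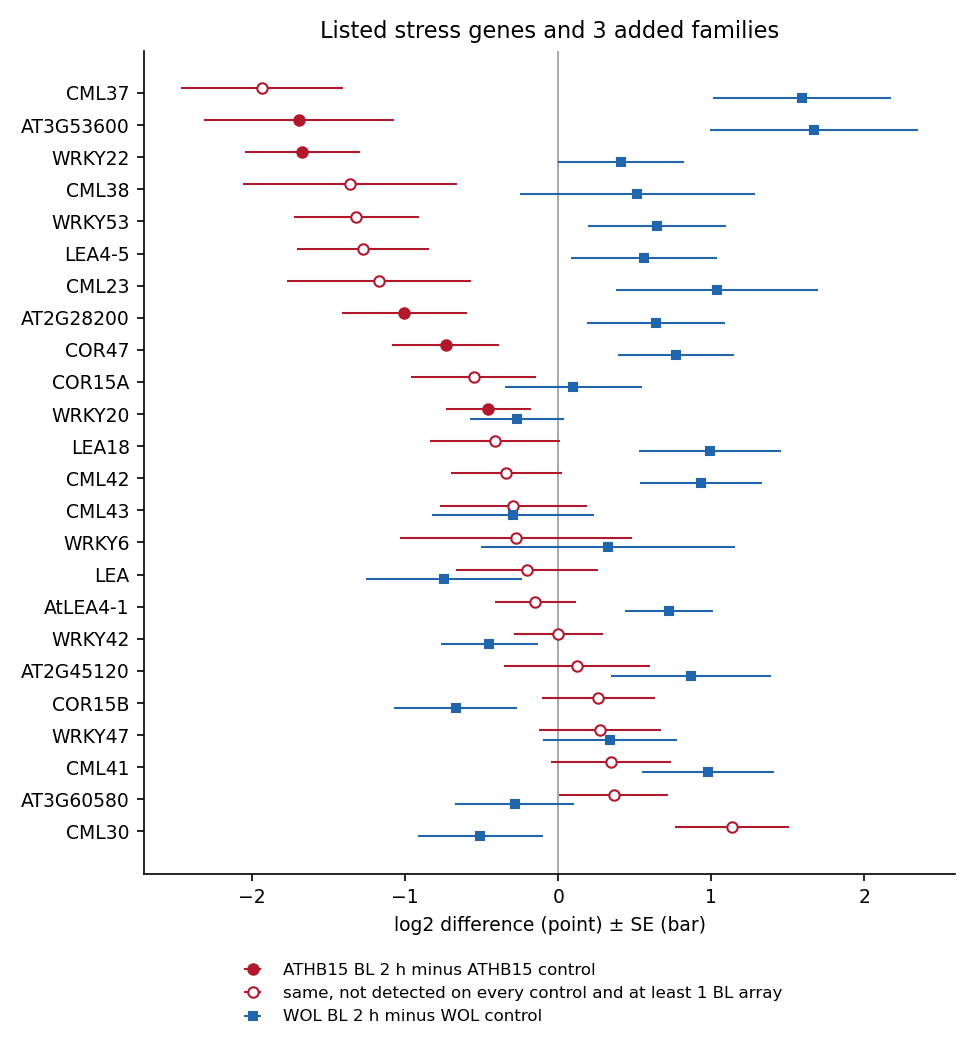
Log2 differences with bars of ± SE for the 24 measured genes of the stress lists and the 3 families added by name, for ATHB15 BL against its control (red circles) and WOL BL 2 h against its control (blue squares). Filled circles are the 5 genes called present on all 3 ATHB15 controls and at least 1 ATHB15 BL array, and open circles are the other 19, and squares carry no mark for detection. In ATHB15 cells 17 points lie below 0 and 7 above it. All 7 above it, and some below it, are genes called absent on all 5 ATHB15 arrays, so their directions were not measured. Over the 8107 genes called present on at least 3 arrays, 49.4% had a lower mean in ATHB15 BL. In WOL cells 17 points lie above 0 and 7 below it, beside a median of -0.11 over all probe sets. WRKY22 in ATHB15 cells alone passed the test.

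Calmodulin-like and late embryogenesis abundant families were added by name after values had been seen. CML proteins are calcium sensors. Of 7 with a probe set of their own 5 had a lower and 2 a higher mean in ATHB15 BL, and the median was -0.34. Over the 8107 genes called present on at least 3 arrays, 49.4% had a lower mean. By limma 0 of the 7 were called, and 2 were at an unadjusted p under 0.05 (1 in each direction), beside 13.7% of all probe sets. CML30 was the higher of these 2, with 35.8 and 31.9 in ATHB15 BL, against 12.5, 3.4 and 5.1 in ATHB15 control, and was called absent on all 5 arrays, so no change was measured. CML41, with a higher mean, and CML43, with a lower mean, were also called absent on those 5 arrays, so their directions were not measured. CML37 had 16.5 and 23.1 in ATHB15 BL, against 118.5, 106.9 and 137.4 in ATHB15 control, with an absent and a marginal call on the treated arrays. As neither treated array was called present, the size of the CML37 difference was not measured. The fitted difference did not pass the test (adjusted p = 0.0970 in limma). Over the WOL arrays the r of CML37 with STZ was 0.867. CML38, with r = 0.933 over the WOL arrays, had 33.5 and 52.2 in ATHB15 BL, against 271.5, 50.5 and 158.2 in ATHB15 control, and the groups overlapped. LEA4-5, a protein that protects cells during drying, had absent calls throughout ATHB15 BL and on 1 of the 3 controls, with 16.2 and 23 in ATHB15 BL, against 91.1, 66.8 and 55.3 in ATHB15 control (adjusted p = 0.190 in limma). The 4 genes named LEA all had a lower mean in ATHB15 BL, with a median of -0.31, against 49.4% of the 8107 genes with a lower mean. LEA18, LEA and AtLEA4-1 were called absent on all 5 ATHB15 arrays and present on at most 1 of the 15 arrays. Their directions were therefore not measured.

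The stele markers stayed detected where STZ was low. PHV, a class III HD-ZIP regulator of vascular patterning, had 553.5 and 1051.3 in ATHB15 BL, against 1110.6, 882.4 and 1175.2 in ATHB15 control (difference -0.45, adjusted p = 0.680 in limma). LHW, a transcription factor that promotes vascular cell divisions, had 1745.2 and 2291.0 in ATHB15 BL, against 1784.7, 878.3 and 1191.0 in ATHB15 control (difference 0.69, adjusted p = 0.493 in limma). For both genes the groups overlapped. Over the WOL arrays LHW ran against STZ, with r = -0.777, and PHV had r = -0.628, and the part of cell makeup in the STZ values was not tested. The missed tests do not show that the makeup of the sorted cells was the same.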

How the data were processed

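Per the file headers, the authors deposited for each probe set and array a signal intensity, a detection p-value and a detection call. Signal intensity was identical in both deposited tables for 342150 of 342150 values, and its trimmed mean was set to a common level on every array. The software, build and background correction are not given in the sources used here. Per the labels, RNA was amplified in 2 cycles before hybridisation. No array was left out.

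Signals were analysed as log2(signal + 16). After removal of 64 control probe sets, 22746 were fitted in limma 3.58.1 (R 4.3.3) with 1 mean for each of 7 groups over 15 arrays, 8 residual and 6.34 prior degrees of freedom. A call is a two-sided p under 0.05 after Benjamini-Hochberg adjustment across every probe set of a comparison. The fit was tested on simulated data. A probe annotation pairs 13513 of the probe sets with 1 gene, 503 with several and 8730 with none, and names follow a RefSeq gene table (TAIR10.1).

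STZ, the gene lists and the tests were chosen with earlier results of these data known. Named genes are STZ, any listed gene with its own probe set, and the genes of highest (10) and lowest (5) r over 15 arrays and of highest r (10) over WOL arrays, called present on at least 3 arrays. Calmodulin-like, LEA, further WRKY and neighbouring genes were named after their values were seen.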

Additional observations from a re-analysis of the deposited data

How the results depend on the processing

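The ATHB15 difference of STZ, on which it was chosen, was -3.37 to -2.91 under other offsets, scalings, filters and covariates. It was -3.70 to -2.78 with 1 array left out. Its sign could not turn there, because both treated arrays lay below all controls. The alternatives include the other deposited table, whose signals are identical to those used. The difference between the lines at 2 h, which holds the same term, was -3.99 to -3.51 and, with 1 array left out, -4.32 to -3.39. No WOL time and no F test passed the threshold in any alternative, and with 1 array left out the WOL values ranged from -0.092 to 0.84 at 0.5 h (the sign turned without WOL control B), 0.30 to 1.24 at 1 h, 0.15 to 1.08 at 2 h and 0.19 to 1.43 at 4 h, and the F statistic from 0.25 to 1.67. The small difference between untreated lines turned to 0.26 under median centring, 0.27 with the GAPDH ratio and 0.40 with the actin ratio as a covariate, and ranged from -0.48 to 0.45 with 1 array left out, at 0.45 without WOL control A, 0.27 without ATHB15 control 2 and 0.094 without ATHB15 control 3.

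The count of listed genes called in ATHB15 was 0 with an offset of 1 or 64, quantile normalization, median centring, the arrays of the line only, the replicate block, any of the 3 ratios as a covariate, and each left-out array (0 to 0). Of the 100 genes most like STZ in WOL cells, 1 was called lower with an offset of 1, 13 with the filter on detection, 0 with the arrays of the line only, the replicate block, the UBQ or the GAPDH ratio and 1 with the actin ratio, and 0 to 8 with 1 ATHB15 array left out. Those with a lower mean numbered 69 to 90 over 18 settings. AT5G54940 was called in 6 of 16 settings and AR781 in 4. Over all probe sets the calls in ATHB15 numbered 253, and 103 and 349 with offsets of 1 and 64, 172 with quantile normalization, 479 with the detection filter, 47 with the line's arrays only, 1, 63 and 96 with the UBQ, GAPDH and actin ratios, and 20 to 160 with 1 array left out.

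Replicate labels shared by the groups were not taken as pairs in the main fit. Correlations of deviations ran from -0.19 to 0.42 in WOL and were -0.035 and 0.057 in ATHB15. The highest was between WOL control and WOL BL 4 h. In groups of 2 arrays A and B give the same value, so these do not settle whether arrays were paired. With the replicate block STZ was -3.35 in ATHB15, 0.38, 0.77, 0.62 and 0.81 at the WOL times, and 75 probe sets were called in ATHB15. Chosen after the data were seen were the alternatives for likeness. The number of arrays, 2 or 3 in a group, limits each value.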

Other observations

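The chromosome around STZ was read for the 10 protein-coding genes on each side in the TAIR10.1 gene order, of which 9 of 20 had a probe set of their own. None of the 9 was called in ATHB15 cells by limma, and 1 was at an unadjusted p under 0.05, beside 13.7% of all probe sets. AT1G27690, which lies 5 genes before STZ, had 190.4 and 160.1 in ATHB15 BL, against 305.0, 424.3 and 375.2 in ATHB15 control, a difference of -1.0 ± 0.30 (SE, adjusted p = 0.139 in limma). In WOL cells AT1G27690 ran against STZ, with r = -0.66 over 10 arrays, and over 15 arrays its r was 0.54. SAT32 (salt tolerance 32), which lies 4 genes after STZ, followed it in WOL cells with r = 0.903 over 10 arrays, and had 368.3 and 458.5 in ATHB15 BL, against 321.3, 334.6 and 273.2 in ATHB15 control. Its difference was 0.40 ± 0.35 (SE, adjusted p = 0.698 in limma), in the direction opposite to that of STZ, and over 15 arrays its r was 0.385.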
